A study of Mus musculus with 34 samples.

Results

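The p53 pathway was followed here through 10 genes, chosen by name from the table of gene expression: Trp53, Cdkn1a, Mdm2, Ccng1, Bax, Bbc3, Phlda3, Zmat3, Trp53inp1 and Pmaip1. All 10 were among the 52661 genes of that table, and the RPKM of each of 27 compounds was set against that of the vehicle, gene by gene. The study screened small molecules for effects on the splicing of neuronal microexons, very short exons used mainly in neurons, and sequenced polyA+ RNA of treated N2A cells. N2A is a mouse neuroblastoma line, so that the results describe a single tumour-derived line. All libraries came from cells kept for 24 h in 0.4% DMSO, and the 3 control libraries, labelled A, B and C, received DMSO alone. Libraries were made in duplicate (A and B) for 4 inhibitors of histone deacetylases (HDACs), Vorinostat, CI-994, BRD4884 and BRD6688, and singly for the other 23 compounds, giving 34 libraries, in which 17 compounds were classed as activators of microexon inclusion and 10 as inhibitors.

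p53, the product of Trp53, is a transcription factor that is kept low in unstressed cells by Mdm2, a ubiquitin ligase which marks it for degradation and which is itself a p53 target, so that the pair forms a feedback loop. When DNA damage or other stress frees p53 from Mdm2, it raises genes that stop the cell cycle, such as Cdkn1a (p21, an inhibitor of cyclin-dependent kinases), and genes that permeabilise mitochondria, such as Bax, Bbc3 (Puma) and Pmaip1 (Noxa). Ccng1 (cyclin G1), Phlda3 (a repressor of AKT signalling), Zmat3 (a zinc finger protein that binds RNA) and Trp53inp1 (a nuclear and autophagy protein) are further p53 targets, and several of these genes also respond to other transcription factors.

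Members were measured in 3 ways. The deposited RPKM combined the replicates of a condition into 1 value and so carries no replicate error. A ratio to DMSO was counted past 2-fold on the log2(RPKM + 0.5) scale, if the compound or DMSO exceeded 5 RPKM. To obtain a value per library, reads spanning the junctions of annotated exons were summed per gene from the splicing table and given as RPM, reads per 1000000 junction reads of the library. These were tested with limma over all 34 libraries, with Benjamini-Hochberg adjustment over 10689 genes. A change is called here where the adjusted p was below 0.05. For a compound with 1 library the test assumes that the lone library varies as the replicated ones do, and all comparisons share the 3 DMSO libraries. Percent spliced in (PSI), the share of transcripts with an exon or intron included, was given per library.

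Junction reads ranged from 17702718 in Vorinostat A to 40613524 in DMSO A. The Vorinostat libraries stood apart from each other (chi-square per degree of freedom 39.6, against 6.1 to 8.67 for the other pairs of one group). Values for Vorinostat are therefore given for each library. The test uses 1 spread per gene for all groups, so its SE and p-values for Vorinostat do not reflect this larger difference in full. The neuroblastoma marker Hand2 stood at 247.51 RPKM in DMSO, while Nefm and Nefl were at 0.01. Markers of leukocytes (Ptprc, Cd68), fibroblasts (Col1a1, Dcn) and hepatocytes (Alb) were at or below 0.56 RPKM in DMSO, the endothelial marker Pecam1 was at 0.79, and of the glial markers Mbp was at 1.93, Gfap at 0.29 and Aqp4 at 0. Col1a1 reached 11.67 RPKM with CI-994 and was called higher in 12 compounds, Pecam1 reached 3.77 with CI-994 and was called higher in 10 and lower in 2, and Mbp was called higher in 6 and lower in 3. All 3 were called higher by junction reads in the 4 HDAC inhibitors, though the RPKM of Mbp with Vorinostat was 1.85. Genes were tested only above a limit on mean junction reads over all libraries. Col1a1, at 0.02 RPKM in DMSO, had little room to be called lower, and its calls are not independent of that limit. Gfap, Cd68 and Dcn were not tested by junction reads. They reached 3.57 RPKM with Vorinostat, 5.2 with T5985871 and 1.93 with Vorinostat. Aqp4, Ptprc and Alb, also untested, stayed at or below 0.46. The part of these markers in the changes described here was not tested.

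Promoters are shown for Cdkn1a, the member called in most compounds, and for Mdm2, whose transcript start is described further on, with matches to the p53 decamer, the 10-base unit of the p53 response element, in capitals. They are the 250 bases before the start of the RefSeq transcript, read 5′ to 3′ on the strand of the gene (GRCm38.p6), at chr17:29090729-29090978 on the plus strand for the first of 2 Cdkn1a starts and chr10:117710759-117711008 on the minus strand for Mdm2.
Cdkn1a: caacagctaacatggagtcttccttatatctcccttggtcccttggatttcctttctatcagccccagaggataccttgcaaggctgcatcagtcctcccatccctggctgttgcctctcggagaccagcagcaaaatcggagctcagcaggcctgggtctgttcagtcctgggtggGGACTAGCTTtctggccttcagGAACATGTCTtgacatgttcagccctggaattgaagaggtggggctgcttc
Mdm2: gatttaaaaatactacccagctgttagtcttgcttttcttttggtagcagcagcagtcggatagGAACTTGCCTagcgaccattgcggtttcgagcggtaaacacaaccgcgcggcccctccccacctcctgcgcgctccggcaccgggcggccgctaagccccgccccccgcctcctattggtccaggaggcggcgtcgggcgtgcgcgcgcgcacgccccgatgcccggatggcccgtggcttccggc
The first Cdkn1a window held 2 decamers, 73 to 64 and 51 to 42 bases before the start, and the window at the second start held none. The Mdm2 window, which lies before exon 1, held 1 decamer. Windows of 300 bases, which add 50 bases after the start, were found for 7 members, and 5 of their 10 windows held a decamer (Trp53, Cdkn1a, Mdm2, Ccng1 and Bax), compared with 8.36% of all 32851 promoter windows of that length. A match on either strand is a description of the letters and not a site of binding.

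In DMSO the members spanned a wide range per transcript length. Bax, Trp53 and Mdm2 were the highest, at 88.94, 73.57 and 69.5 RPKM. Ccng1 (24.02), Cdkn1a (11.55), Zmat3 (10.23) and Phlda3 (6.56) followed, and Bbc3 was at 2.84. Trp53inp1 was at 0.22 and Pmaip1 was listed at 0, with no more than 0.07 in any compound. Pmaip1 therefore gave no junction value to test, and 9 members were tested.

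By RPKM ratio, 13 of the 270 member and compound values were more than 2-fold above DMSO and 7 more than 2-fold below. Over all genes, 2.67% of the values that met the limit of 5 RPKM were past 2-fold above and 3.86% below. The 270 member values include some that did not meet that limit and could not be counted, so the bases differ. Trp53inp1 (0.22 RPKM in DMSO) and Bbc3 (2.84) met it only where the compound was high, so they could only be counted as higher. Cdkn1a gave 9 of the 13 higher values, and Trp53 and Bax gave 6 of the 7 lower ones. The median RPKM ratio of all genes above 5 RPKM was itself below DMSO for the HDAC inhibitors, by log2 -0.44 for CI-994, -0.36 for Vorinostat, -0.27 for BRD4884 and -0.19 for BRD6688. Centred on that median, 15 member values were past 2-fold above and 3 below.

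**Figure D1:**
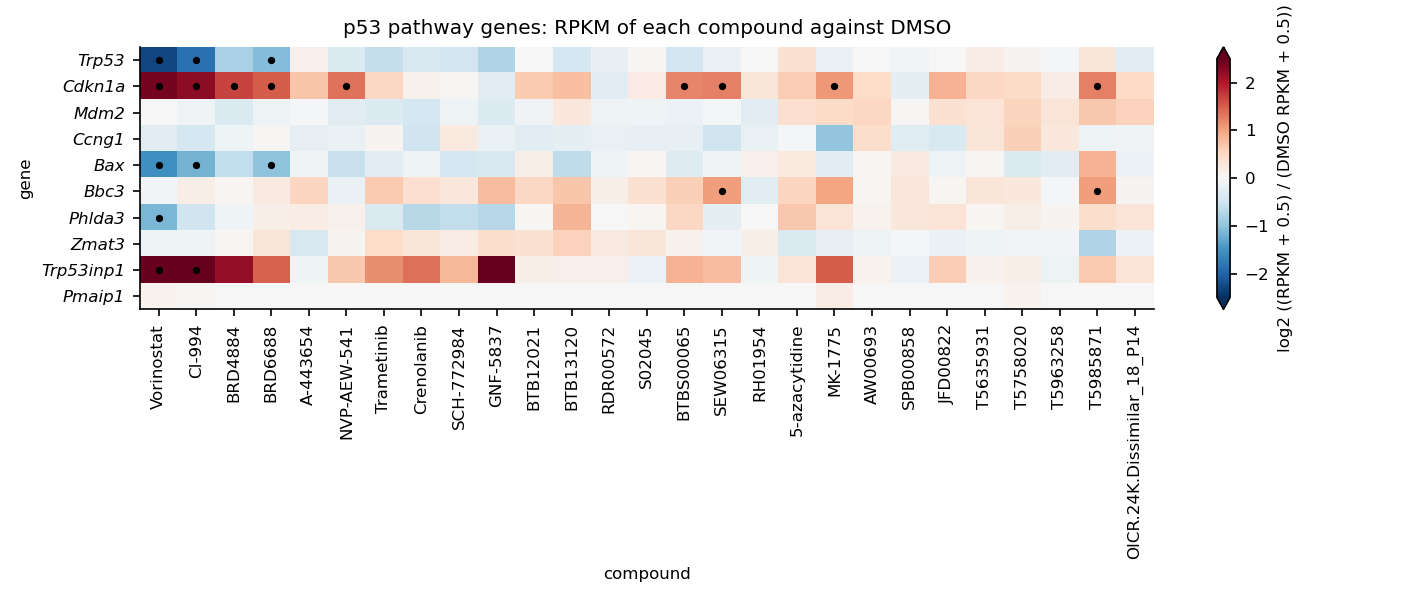
RPKM of each of 27 compounds over DMSO (log2 scale with 0.5 added to both, colour limits at 2.5) for the 10 genes. Dots mark ratios past 2-fold where the compound or DMSO exceeded 5 RPKM; 9 lie in the Cdkn1a row, and the first 2 columns, Vorinostat and CI-994, hold the darkest Trp53, Cdkn1a and Bax colours.

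Trp53 RNA fell with every HDAC inhibitor. Its junction reads were 129.5, 152.1 and 128.9 RPM in DMSO A, B and C, and 39.26 and 27.69 in Vorinostat, 38.02 and 39.16 in CI-994, 62.5 and 61.73 in BRD6688, and 92.99 and 88.59 in BRD4884. None of these 8 libraries reached the lowest DMSO library, a separation that was not counted over all genes. The log2 change was -2.05 ± 0.12 (SE) for Vorinostat (adjusted p = 5.83e-09, limma), -2.3 from library B alone and -1.8 from library A alone. It was -1.82 for CI-994, -1.14 for BRD6688 and -0.59 for BRD4884 (adjusted p = 1.9e-08, 5.21e-06 and 0.00101), and RPKM gave 14.79, 19.89, 34.46 and 41.35 in the same order. Of the other compounds, BTB13120, of unknown target, and the TRK inhibitor GNF-5837 lowered it to 79.1 and 92.5 RPM (log2 -0.79 and -0.56, adjusted p = 0.00295 and 0.0104). The DNA methyltransferase inhibitor 5-azacytidine held the highest Trp53 value, 200.5 RPM (log2 0.56, adjusted p = 0.0494). That call was lost when any 1 DMSO library was left out (adjusted p = 0.0524 to 0.13). Trp53 was thus called lower in 6 compounds and higher in 1, where over all genes and compounds 12.1% of values were called lower and 13.6% higher. The share of all genes called lower was 35.8% with Vorinostat, 36.8% with CI-994, 20.3% with BRD4884 and 25.7% with BRD6688. It was 18.5% with BTB13120 and 17.8% with GNF-5837.

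Cdkn1a was the member that changed in most compounds, rising in 17 of 27 and falling in none. The median gene was called higher in 3 compounds. DMSO libraries held 12.48, 12.74 and 11.64 junction RPM, compared with 98.69 and 66.13 in Vorinostat, 76.5 and 65.23 in CI-994, 50.76 and 55.84 in BRD4884, and 34.6 and 37.65 in BRD6688. The lowest HDAC inhibitor library was thus well above the highest DMSO library. The log2 change was 2.72 ± 0.15 for Vorinostat (2.43 from library B and 3.01 from library A alone), 2.52 for CI-994, 2.12 for BRD4884 and 1.55 for BRD6688, with adjusted p = 2.85e-09, 6.38e-09, 1.1e-07 and 2.08e-06. In RPKM these were 62.79, 56.34, 38.16 and 34.03 against 11.55.

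Outside the HDAC inhibitors, the highest Cdkn1a values belonged to compounds with different targets. The IGF1R inhibitor NVP-AEW-541 gave 37.15 RPM and the WEE1 inhibitor MK-1775 35.67 (log2 1.6 and 1.54, adjusted p = 5.72e-05 and 0.000198). WEE1 is the kinase that restrains entry into mitosis. BTBS00065 (32.68), SEW06315 (30.99), T5985871 (29.76) and JFD00822 (28.68), all of unknown target, followed with log2 changes of 1.22 to 1.41. The smallest calls, A-443654 (an AKT inhibitor, log2 0.68) and AW00693 (0.54), were lost when any 1 DMSO library was left out, and that of OICR.24K.Dissimilar_18_P14 (0.74) was lost without DMSO C (adjusted p = 0.052). Crenolanib, SCH-772984, GNF-5837, RDR00572, S02045, RH01954, SPB00858, T5635931, T5758020 and T5963258 lay between 9.706 and 16.59 RPM and were not called.

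**Figure D2:**
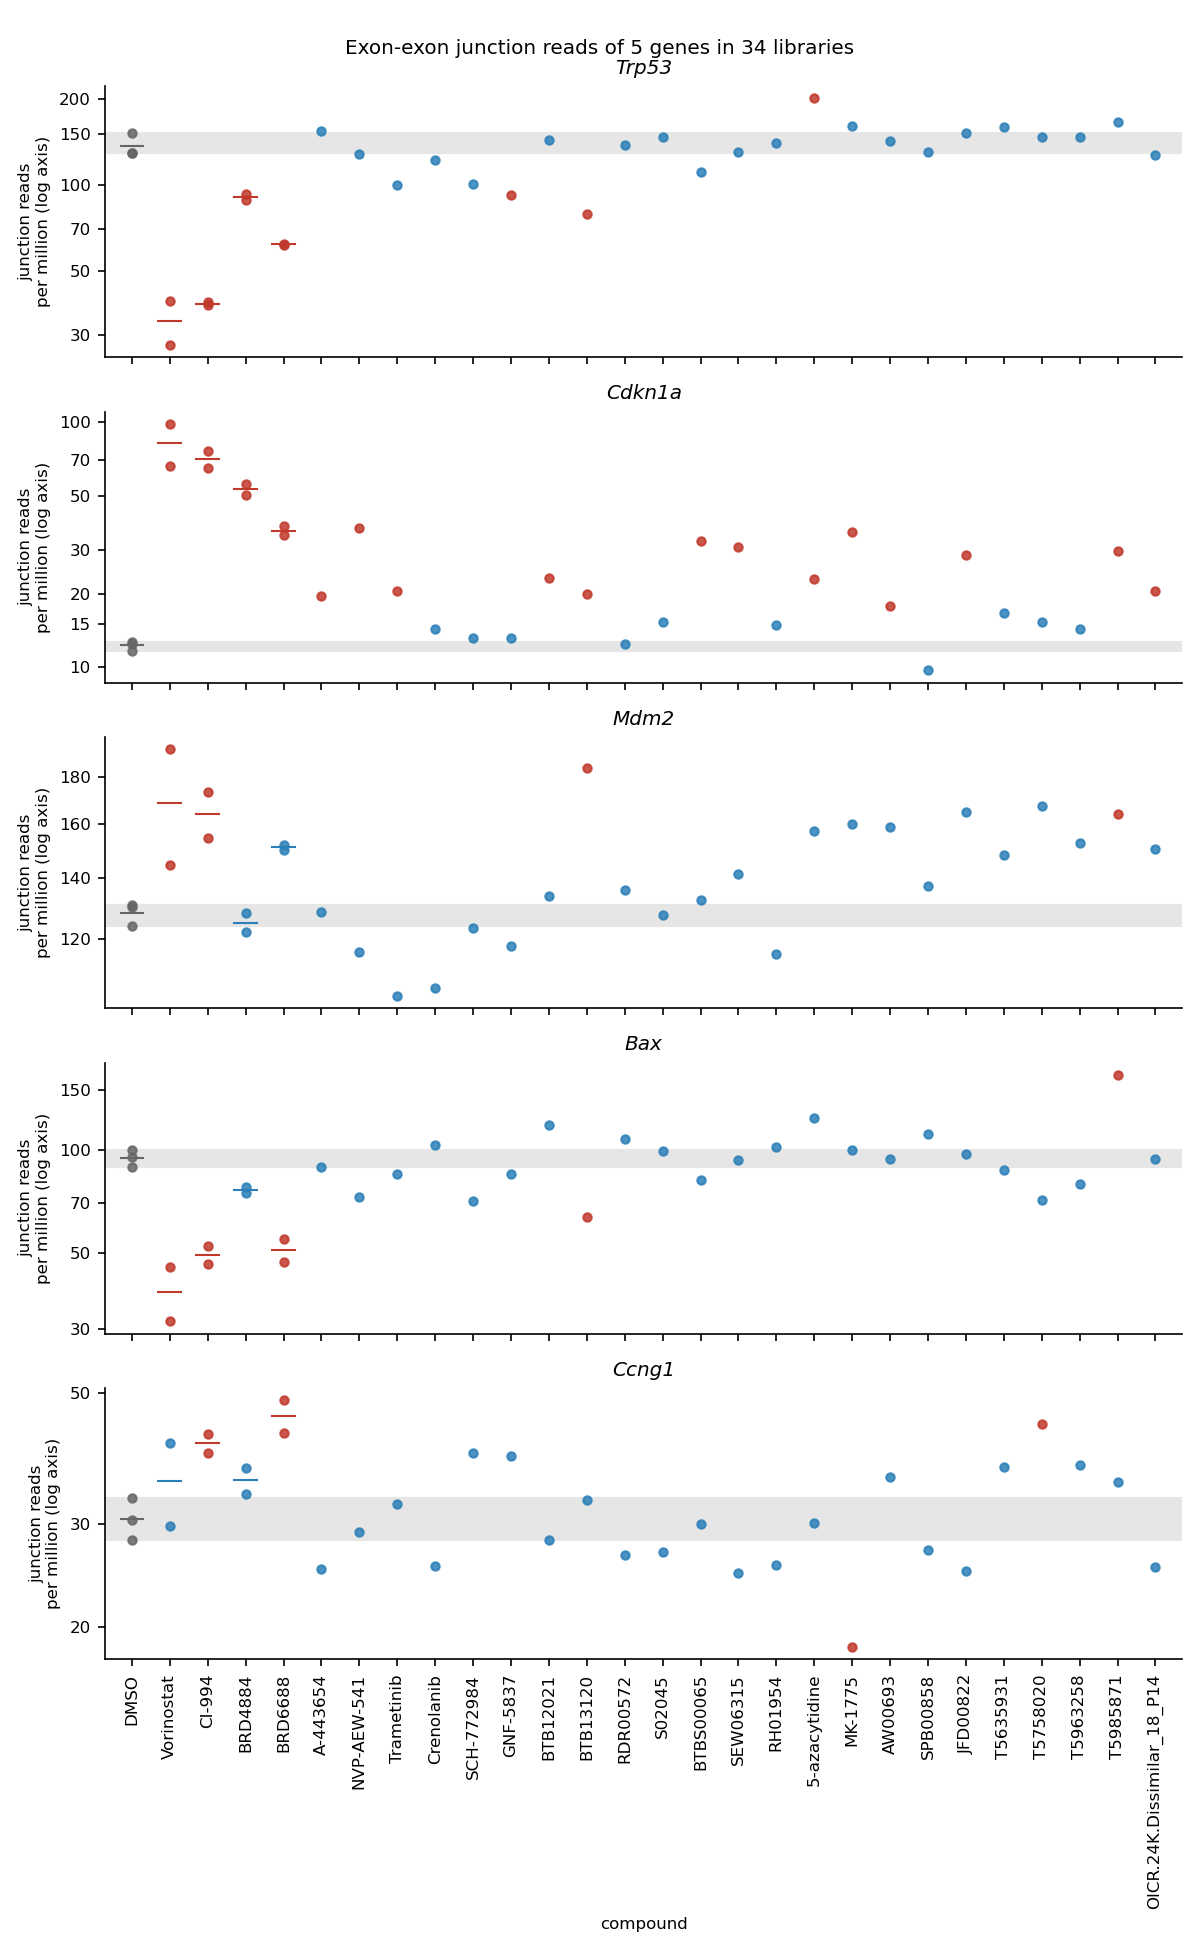
Exon-exon junction reads in RPM (log axes that do not start at 0) for 5 genes; each point is a library, bars are means of groups with more than 1 library, and the grey band is the range of the 3 DMSO libraries. Red points are called at adjusted p below 0.05; Trp53 and Cdkn1a move in opposite directions in the HDAC inhibitors, whereas Mdm2 stays between 104.1 and 193.

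By junction reads, the level of Mdm2 moved little. DMSO libraries held 130.6, 123.9 and 130.1 junction RPM, and the other 31 libraries ranged from 104.1 (Trametinib, a MEK inhibitor) to 193 (Vorinostat B). It was called higher in 4 compounds: BTB13120 (184.4, log2 0.52 ± 0.13, adjusted p = 0.00928), Vorinostat (144.6 and 193, 0.38 ± 0.10, adjusted p = 0.00407), T5985871 (164.1, 0.36, adjusted p = 0.0324) and CI-994 (173.4 and 154.6, 0.35, adjusted p = 0.0066). The value for Vorinostat was 0.17 from library A and 0.59 from library B alone, the call for CI-994 was lost without its library A (adjusted p = 0.0873), and that for T5985871 without any 1 DMSO library (adjusted p = 0.0521 to 0.0774). The RPKM as deposited did not show the rise for these 2 HDAC inhibitors (69.59 in Vorinostat, 65.55 in CI-994 and 69.5 in DMSO). Centred on the median ratio of all genes above 5 RPKM, the log2 ratio of Mdm2 was 0.36 with Vorinostat and 0.36 with CI-994. The highest RPKM values, all under 2-fold, were 111.51 in T5985871, 104.07 in OICR.24K.Dissimilar_18_P14, 101.78 in T5758020, 99.28 in AW00693 and 97.09 in MK-1775. Of these, only T5985871 was called by junction reads, which leave out junctions that skip an exon. In RPKM, 12 compounds were above DMSO and 15 below. The reason for the difference between the measures was not tested.

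The start of the Mdm2 transcript changed more than its level. Mdm2 has a promoter before exon 1 and a second one inside intron 1, and the second is the one known to respond to p53. Transcripts from the first join exon 1 to exon 2, and those from the second run from intron 1 into exon 2 unspliced. The splicing table counts both kinds of read at intron 1 (mm9 chr10:117147085-117147607, 523 bases), a comparison chosen after the values had been seen. Reads across the boundary of exon 1 and intron 1, which an unspliced intron would also give, were 0 in all libraries but BRD6688 B, which had 2. In DMSO A, B and C, 158, 148 and 102 reads ran from intron 1 into exon 2 and 376, 257 and 151 joined exon 1 to exon 2, so that 29.6%, 36.5% and 40.3% came from intron 1. In Vorinostat A and B these were 331 and 324 against 48 and 77, or 87.3% (95% Wilson interval 83.6 to 90.3) and 80.8% (76.7 to 84.4). CI-994 gave 76.1% and 67.7%, BRD4884 62.3% and 58.8%, and BRD6688 58.6% and 54.1%. All 8 HDAC inhibitor libraries were thus above the 3 DMSO libraries. How many other introns separate these libraries in this way was not counted.

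Both kinds of Mdm2 read moved with Vorinostat. Reads from intron 1 were 15.6 ± 4.38 RPM (SD, n = 2) against 4.38 ± 0.635 in DMSO (n = 3), 3.56-fold higher, and exon 1 reads were 2.84 ± 0.184 against 8.01 ± 1.09, or 0.355 of DMSO. Reads from intron 1 were 2.72-fold of DMSO in CI-994, 2.16-fold in BRD4884 and 1.89-fold in BRD6688. Of the 23 compounds with 1 library, 4 were above the DMSO range of the share from intron 1 and 12 were below it, among them BTB12021 and S02045, the 2 lowest, JFD00822 at 21.3% and BTB13120 at 21.8%. NVP-AEW-541 (58.6%, interval 51.6 to 65.4) and Trametinib (49.4%, 42.2 to 56.7) had fewer exon 1 reads (3.24 and 3.4 RPM) and no more intron 1 reads (4.59 and 3.32) than the DMSO libraries, which held 3.89 to 5.1 intron 1 reads. RH01954 (41.9%) and T5635931 (40.4%) were next to the highest DMSO library, which lay within their intervals. MK-1775 had the most exon 1 reads of all libraries, 16.2 RPM, and with 7.54 intron 1 reads its share, 31.8%, was within the DMSO range. The intervals cover counting error only.

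**Figure D3:**
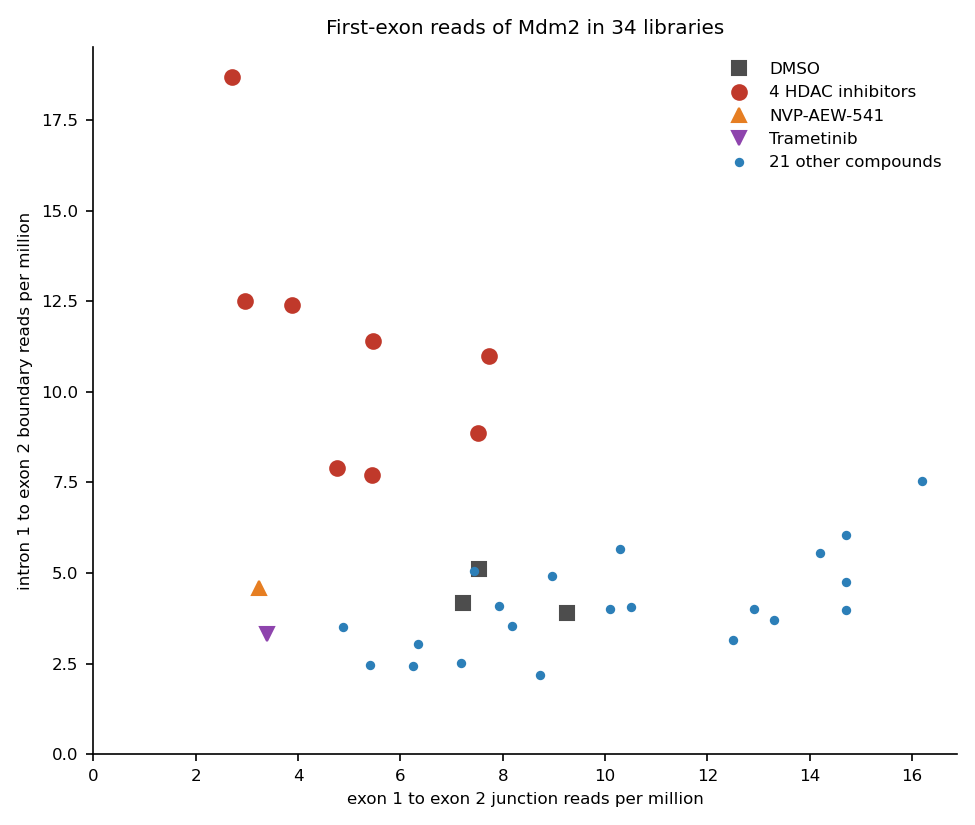
Reads in RPM joining exon 1 to exon 2 of Mdm2 (horizontal) and running from intron 1 into exon 2 (vertical), 1 point per library, 34 libraries. The 8 HDAC inhibitor libraries lie above 7.5 on the vertical axis, and DMSO libraries between 3.89 and 5.1.

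Exon 3 of Mdm2 was skipped more often in 6 compounds, all classed as microexon inhibitors. The exon (mm9 chr10:117146756-117146840, minus strand, 85 bases) matches exon 3 of an annotated Mdm2 transcript in GENCODE vM21, where that exon, of the same length, carries the start codon and 81 coding bases. Skipping of this exon is known to give a protein without the amino terminus, the part that binds p53. The coding bases, with the start codon in capitals, show what the skipped transcripts lack.
Mdm2 exon 3: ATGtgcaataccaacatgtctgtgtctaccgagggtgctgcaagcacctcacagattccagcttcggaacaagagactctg
In DMSO A, B and C the exon was included in 79.32, 84.25 and 80.9% of transcripts (mean 81.5 ± 2.52, SD). It was included in 52.53% with MK-1775 (interval 50.1 to 54.9), 57.45% with T5985871, 59.41% with OICR.24K.Dissimilar_18_P14, 65.87% with T5758020, 68.12% with JFD00822 and 68.09% with AW00693, that is, changes of -29.0 to -13.4 PSI. A further 8 compounds with 1 library, activators and inhibitors, were below the DMSO range with changes under the limit of 10 PSI, from 72.08% with T5963258 and 72.26% with T5635931 to 74.58% with Trametinib and 78.76% with NVP-AEW-541. The lowest of the 8 HDAC inhibitor libraries was Vorinostat A with 78.32%, and the highest was BRD6688 A with 89.09%. Over all events, such a fall was found in 1.1% with MK-1775, 1.31% with T5985871, 0.537% with OICR.24K.Dissimilar_18_P14, 0.593% with T5758020, 0.624% with JFD00822 and 0.699% with AW00693. These shares cover events of all kinds, including those too low in DMSO to fall by 10 PSI. Each of the 6 compounds had 1 library, so there is no replicate check of the difference.

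Bax, a pore-forming Bcl-2 protein, fell with HDAC inhibitors and rose with 1 compound. DMSO libraries held 95.58, 99.78 and 88.99 junction RPM. Vorinostat had 45.59 and 31.5, CI-994 52.49 and 46.39, and BRD6688 46.98 and 54.76, with log2 changes of -1.32 ± 0.13, -0.94 ± 0.13 and -0.9 ± 0.13 (adjusted p = 8.54e-07, 2.16e-05 and 6.32e-05). BRD4884, with 74.7 and 77.9, was below all DMSO libraries but was not called. BTB13120 lowered Bax to 63.62 (log2 -0.57, adjusted p = 0.0191, and 0.0528 without DMSO B). T5985871 raised it to 165.9 (log2 0.81 ± 0.17, adjusted p = 0.00117), and its RPKM was 163.46 against 88.94.

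Transcripts of Bax with T5985871 also kept intron 1 more often. The intron (mm9 chr7:52721642-52722111, 470 bases) matches intron 1 of an annotated Bax transcript in length and order, and GENCODE vM21 also holds a Bax transcript whose first exon, of 612 bases, spans that intron. It was retained in 9.76, 6.17 and 7.64% of transcripts in DMSO and in 41.16% with T5985871 (interval 38.1 to 44.3), from 303 and 265 reads across its boundaries and 406 spliced reads. AW00693 (21.34%) and MK-1775 (19.35%) were the other 2 compounds past the limit. Over all events, such a rise was found in 1.09% with T5985871, 0.496% with AW00693 and 0.523% with MK-1775. These shares include events too high in DMSO to rise by 10 PSI. The CI-994, BRD4884 and BRD6688 libraries, at 12.12 to 16.71%, were above the DMSO range by less than 10 PSI on average, as were Vorinostat A (15.27%) and B (15.47%, with unbalanced reads). A further 6 compounds with 1 library were above it by less than that limit, at 10.34 to 14.54%, the highest being OICR.24K.Dissimilar_18_P14, T5635931 (14.22%, unbalanced) and JFD00822 (14.11%). Over all members, 90 events could be compared, these 2 were called in any compound, and 9 of 2407 event and compound values (0.374%) were called, against 1.12% over all events.

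**Figure D4:**
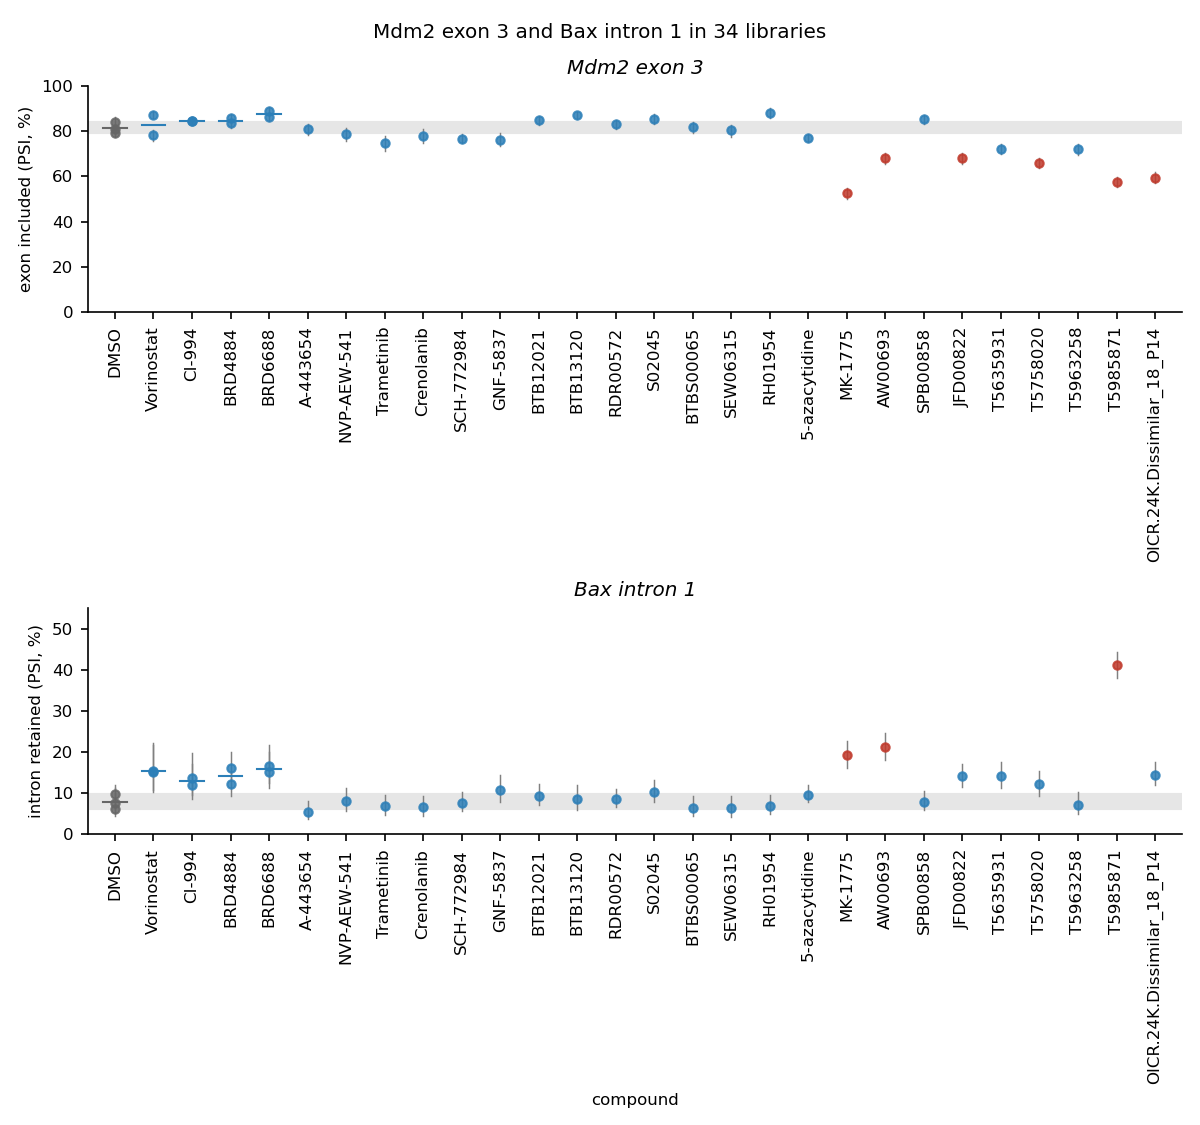
Inclusion of Mdm2 exon 3 (top) and retention of Bax intron 1 (bottom) in 34 libraries, in PSI; vertical lines are 95% Wilson intervals, bars are means of groups with more than 1 library, and the grey band is the DMSO range. Compounds past 10 PSI are red, and libraries with unbalanced intron reads are drawn but not called; MK-1775, AW00693 and T5985871 are red in both panels.

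The remaining pro-apoptotic members were low. Bbc3 had 17 to 69 junction reads per library in DMSO (0.8494 to 1.699 RPM). It rose with T5985871 alone, to 2.967 RPM from 74 reads (log2 1.36 ± 0.53, adjusted p = 0.0432), and lost that call without DMSO B or C (adjusted p = 0.0859 and 0.102). In RPKM the highest Bbc3 values were 6.4 with T5985871, 6.35 with SEW06315 and 6.12 with MK-1775, against 2.84. Pmaip1 had junction reads in 2 libraries only, 3 in MK-1775 and 2 in Vorinostat B, at or under the 3 reads taken as the floor.

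Ccng1 was called higher in 3 compounds and lower in 1, where over all genes and compounds 13.6% of values were called higher and 12.1% lower. Of the 27 compounds, Cdkn1a rose in 17, and Ccng1 was called in 3 of these. It held 30.43, 28.2 and 33.18 RPM in DMSO and 18.53 in MK-1775, the lowest library (log2 -0.72 ± 0.17, adjusted p = 0.0089), with an RPKM of 11.93 against 24.02. It was called higher in BRD6688 (48.6 and 42.81, log2 0.58, adjusted p = 0.00208), CI-994 (42.61 and 39.56, 0.43, adjusted p = 0.0106) and T5758020 (44.38, 0.54, adjusted p = 0.0406). The T5758020 call was lost without DMSO A or B, and that of CI-994 without its library A (adjusted p = 0.0797). For CI-994 the RPKM lay on the other side of DMSO (17.6), a ratio equal to the median of all genes with that compound, so that the direction of Ccng1 there depends on the measure.

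Zmat3 and Phlda3 were called in few compounds. Zmat3 ranged from 22.14 to 39.31 junction RPM over the 34 libraries and was called in no compound, though it was called with Vorinostat when library A was left out (log2 0.32, adjusted p = 0.0352). Phlda3 fell with Vorinostat (1.469 and 0.964 against 1.871, 3.008 and 1.699 in DMSO, log2 -0.82 ± 0.32, adjusted p = 0.031), and that call was lost without Vorinostat B or DMSO B (adjusted p = 0.221 and 0.121).

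Trp53inp1 went from near silence to clear expression. DMSO A, B and C had 6, 2 and 2 junction reads, compared with 111 and 149 in Vorinostat, 148 and 133 in CI-994, 39 and 61 in BRD4884, and 31 and 31 in BRD6688. No library of these 4 compounds overlapped with DMSO. With these 4 compounds 39.8 to 40.3% of all genes were called higher, and over all compounds 13.6% of values were. Trp53inp1 met the limit of a mean of 20 junction reads over all libraries only through compounds in which it was high. The calls and the lack of overlap are therefore not independent of that filter. Its RPKM was 9.12, 5.3, 2.8 and 1.51 against 0.22. GNF-5837 had 78 reads and 3.59 RPKM, the highest outside the HDAC inhibitors, and Trametinib (35), MK-1775 (24), Crenolanib (22), BTBS00065 (14), NVP-AEW-541 (12) and BTB12021 (12) were also called higher, giving 11 compounds. After quantile normalization the calls for BRD6688, MK-1775, BTBS00065, NVP-AEW-541 and BTB12021 were lost (limma, adjusted p = 0.0946, 0.106, 0.524, 0.863 and 0.162), and that for BTB12021 was also lost without DMSO B (adjusted p = 0.0523) and without the filter on low reads (0.0599). The fitted log2 changes, 5.75 ± 0.46 for Vorinostat and 5.14 ± 0.58 for GNF-5837, depend on the 0.5 read added to each count. With BTB13120 and T5635931 it had 0 reads and was called lower, but DMSO libraries were near the floor of 3 reads and no fold is given.

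Counted by compound, the most members, 6, were called with Vorinostat and CI-994, with which most other genes were called too. With Vorinostat, 6 of 9 members were called, while 76.0% of all 10689 genes were. CI-994 also changed 6 (76.8% of all genes), BRD6688 5 (65.5%) and BRD4884 3 (60.2%). BTB13120 changed 5 members (34.7% of genes), T5985871 4 (54.8%) and MK-1775 3 (23.4%). All of these compounds but T5985871 had Trp53inp1 among their calls, a gene that met the read limit only through compounds in which it was high. No member was called in 6 compounds, and 1 or 2 members were called in the other 14; over these 20 compounds together 15.1% of gene values were called. Vorinostat, CI-994 and BRD6688 shared lower Trp53 and Bax and higher Cdkn1a and Trp53inp1, and BTB13120 had lower Trp53 and Bax with higher Cdkn1a and Mdm2. The fifth call with BTB13120 was Trp53inp1 at 0 reads, where the RPKM (0.28) was above that of DMSO (0.22). The 4 members called with T5985871, Cdkn1a, Mdm2, Bax and Bbc3, were all higher.

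A pair of HDAC1, 2 and 3 inhibitors, BRD4884 and BRD6688, was used at the same dose, 10 µM, and 3 of 9 members differed between them. The difference of BRD4884 minus BRD6688 was log2 0.55 for Trp53 (95% interval 0.26 to 0.84), 0.56 for Cdkn1a (0.21 to 0.91) and 0.59 for Bax (0.28 to 0.9), with adjusted p = 0.0131, 0.0251 and 0.0132, or 0.0246, 0.0458 and 0.0248 when adjusted over both pairs compared. Over all genes, 27.9% differed, a share near that of the members, so the count does not set the members apart. In the fit of all libraries, BRD4884 had the higher Cdkn1a and the smaller losses of Trp53 and Bax. The other members were not called, with intervals of -0.51 to -0.03 for Mdm2 and -0.68 to -0.04 for Ccng1. Leaving out 1 library changed this count: 0 members were called without BRD4884 A, BRD4884 B or BRD6688 A, and 1 was called without BRD6688 B. RDR00572 and RH01954, benzenesulfonamides of unknown target at 2.5 µM and with 1 library each, differed in 0 of 9 members by limma with Benjamini-Hochberg adjustment (0 at an unadjusted p under 0.05, the lowest being 0.0598 for Phlda3) and in 0.0281% of genes. The interval of their difference was -0.75 to 0.25 for Cdkn1a and -0.43 to 0.38 for Trp53, so smaller differences could not be seen.

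Other genes of the pathway were counted from lists written with earlier results of these data known. Of 26 further p53 targets tested, 16 rose and 8 fell with Vorinostat, 18 and 5 with CI-994, 17 and 3 with BRD4884, and 14 and 3 with BRD6688, at median log2 changes of 0.55, 0.49, 0.59 and 0.28 (all genes: 0.05, 0.04, 0.15 and 0.13). Of all genes tested, 40.3, 39.9, 39.9 and 39.8% rose and 35.8, 36.8, 20.3 and 25.7% fell with these 4 compounds. Over all compounds, 23.1% of their 702 values were called higher and 9.4% lower. Tap1 (a peptide transporter of antigen presentation) rose in 15 compounds, Sesn1 (a stress-induced inhibitor of mTORC1) in 14, and Gadd45a (a growth arrest protein) in 12, the last with a log2 change of 2.47 in T5985871 and 2.01 in CI-994. Rps27l fell in 6 and Gdf15 in 5 compounds. Zfp365 rose in 12 compounds and fell in 2, and Plk3 rose in 10 and fell in 4.

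Of 15 regulators of p53 tested, 33 of 405 values (8.15%) were called higher and 58 (14.3%) lower, beside 13.6% and 12.1% over all genes. Atr, a kinase of the DNA damage response, fell in 14 compounds, by -1.4 on the log2 scale with T5985871, and Hipk2, a kinase that acts on p53, rose in 11. Mdm4, the partner of Mdm2, rose in 1 compound and fell in none, and Chek1 rose in 4 and fell in 8. Among 14 other Bcl-2 family members and caspases, 62 of 378 values (16.4%) were higher and 39 (10.3%) lower. Bmf, a BH3-only protein, rose in 12 compounds (log2 4.33 with CI-994 and 4.24 with Vorinostat), and Bak1, the partner pore former of Bax, fell in 10, by log2 -1.61 with Vorinostat, and rose in 7, by 1.05 with T5985871. Of 3 other CDK inhibitor genes tested, 6 of 81 values (7.41%) were higher and 4 (4.94%) lower.

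Of 11 genes of the G2 and M phases tested, 4.04% of 297 values were called higher and 27.9% lower. All 11 fell with Vorinostat and with CI-994 (median log2 -2.61 and -2.28), 9 fell with BRD4884 and with BRD6688 (-0.5 and -0.29), and 9 fell with GNF-5837 (-0.88). MK-1775 and BTB13120 lowered 7 and raised 1 each, T5985871 lowered 3 and raised 2, NVP-AEW-541 lowered 1, and BTBS00065 raised 3 and lowered 0. Whether these genes moved with Cdkn1a was not tested. Of all genes tested, 17.8% fell with GNF-5837, 6.17% with NVP-AEW-541, 36.8% with T5985871, 9.37% with MK-1775 and 18.5% with BTB13120. Aurkb (a mitotic kinase) fell in 13 compounds, and Bub1 (a spindle checkpoint kinase) and Top2a (a topoisomerase of dividing cells) in 9 each. Plk1 fell in 8 compounds and rose in 3.

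The genes whose RPKM followed Cdkn1a most closely over the 28 conditions, of 11478 genes above 5 RPKM in any condition, were Ass1 (r = 0.911), Cd40 (0.902), Plek2 (0.89), Lgals9 (0.882) and Cd74 (0.878). All 5 were low in DMSO (0.26 to 3.34 RPKM) and high in Vorinostat (4.5 to 28.32). For Mdm2 they were Arih2 (0.87), Gata4 (0.845), Bambi (0.841), Pdcd2 (0.841) and Rbm34 (0.829). Of the 28 conditions, 4 share HDACs as target, so these are descriptions without a test. None of the 9 other members was among either set.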

How the data were processed

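The authors mapped polyA+ reads to mouse transcripts with Salmon (version 0.10.2 per the processing notes) and deposited gene RPKM with the replicates of each condition combined. They also deposited PSI, in percent, for each splicing event and library, with a quality score string of reads, made by vast-tools on mm9. Their fold changes, p-values and FDR, and their pooled splicing scores, were not used. Compounds are named as in the study, which pairs the library positions of the labels with names; OICR.24K.Dissimilar_18_P14 is a label. The files held 0 per-sample columns without a sample.

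Members and gene lists were chosen with earlier results of these data known. The design allowed for tests of counts per gene, but the expression table holds RPKM, so spliced junction reads were summed over 160022 introns of 16846 genes from the quality strings and analysed in limma 3.58.1 (R 4.3.3) as log2 RPM, reads per 1000000 junction reads, with 0.5 read added, for genes with a mean of at least 20 reads. Junctions that skip an exon do not enter these sums, and the library kit does not keep strand. The 34 libraries left 6 residual degrees of freedom. The study describes the HDAC inhibitor libraries as biological replicates and gives 2 biological replicates for DMSO, where 3 libraries are labelled. Which DMSO libraries come from separate cultures is not given in the sources used here, so part of the spread between them may be technical. On simulated reads, 95% of genes changed 2-fold and 66% of those changed 1.5-fold were recovered for CI-994 (10684 genes), and 94% and 28% for Trametinib (10683 genes).

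A splicing change was called at 10 PSI or more with all libraries of the compound outside the range of the 3 DMSO libraries, after the coverage and balance filters of the study (introns: at least 15 reads and balance p above 0.05). Members are named in all cases. Other list genes are those called in most compounds in 1 direction, which passes over some genes called in both directions. For Cdkn1a and Mdm2, 5 genes each are given as most like them by Pearson correlation of log2(RPKM + 0.5). Rps27l, Gdf15, Zfp365, Plk3, Mdm4, Chek1, Plk1, Hand2, Col1a1, Pecam1 and Mbp were named after their values were seen, as were the intron 1 reads of Mdm2. Gene identifiers were matched to GENCODE vM21 (GRCm38) without version, and mm9 coordinates were not converted. Alternatives were other scalings, pseudocounts, filters, limits, limma-voom, and fits without each replicate.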

Additional observations from a re-analysis of the deposited data

How the results depend on the processing

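Of 52 member changes called by junction reads, 36 were called under all alternatives run for them. The other 16 lost the call in some alternative but kept their direction, except Trp53inp1 with NVP-AEW-541, whose log2 change was -0.2 after quantile normalization (adjusted p = 0.863). The cause was not tested. Of the 38 higher and 14 lower calls, 11 and 2 were of Trp53inp1, which met the read limit only through compounds in which it was high. The totals of 38 and 14 became 32 and 22 with quantile normalization. They became 22 and 6 when a 2-fold change was also required, and leaving out 1 DMSO library gave 32 to 36 and 12 to 15. For the 4 HDAC inhibitors, 12 were higher and 8 lower, and 10 to 14 and 7 to 8 without 1 library. Of the 20 RPKM ratios past 2-fold, 14 were past it in all alternatives. The 13 higher and 7 lower became 25 and 17 at 1.5-fold, by construction, and 3 were lower after centring. Members that differed between BRD4884 and BRD6688 numbered 3, or 5 with limma-voom, and 0 to 3 without 1 library. The 9 splicing calls became 5 at 15 PSI and 9 to 11 without 1 DMSO library. RPKM ratios could not be computed without a replicate, since the authors merged them.

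Replicate letters did not pair the samples: correlations of the deviations of libraries with the same letter were -0.12 to 0.0451. With the replicate block in the 11 replicated libraries, members called for the HDAC inhibitors stayed at 12 higher and 8 lower, and 3 differed between BRD4884 and BRD6688. Over all genes, the block lowered the calls from 8466 to 7985 for Vorinostat and from 3123 to 2380 for BRD4884 against BRD6688.

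Depth limits Bbc3, Phlda3, Trp53inp1 and Pmaip1, whose junction reads were few.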
